A study of Mus musculus with 4 samples.

Results

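The apolipoprotein L family was followed in dendritic cells that were grown from bone marrow of C57Bl/6 mice with GM-CSF and kept for 16 h in 4 conditions. Cells stood in normoxia or hypoxia (0.5%, the gas unnamed in the labels), and at either oxygen level they received media alone or poly I:C (10 µg/ml), a synthetic mimic of viral double-stranded RNA. Cells of every condition came from the same strain and were grown with the same factor, and neither age nor the number of animals is given in the sources used here. Every condition had 1 Affymetrix Mouse Gene ST 1.0 array of total RNA, so no difference below has a replicate error or a test. Members were the rows of the deposited table named, by a current symbol or an older synonym, Apol6, Apol7a, Apol7c, Apol8, Apol9a, Apol9b or Apol10b. Of these 7 names 6 matched a row, among 22254 genes with a symbol, and Apol9a was not analysed as a gene of its own because no row carries its name. The family was selected on its intensities and log2 differences in these same 4 arrays, those of Apol7c among them, so everything below is a description.

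Apolipoprotein L proteins, despite their name, act mainly inside cells, where they bind and permeabilise or remodel membranes. In humans APOL1 circulates and lyses trypanosomes, and several human members are induced by interferon. Mice lack a counterpart of human APOL1 but carry their own expanded cluster of Apol genes. Mouse Apol9a and Apol9b are interferon-inducible near-copies that bind phosphatidylethanolamine, and mouse Apol7c is a dendritic cell protein that can insert into phagosomal membranes and rupture them, which frees antigen for cross-presentation to T cells.

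In the RefSeq gene table of assembly GRCm38.p6 the cluster lies on chromosome 15 and holds 13 Apol genes, with Apol6 at one end and Apol8 at the other and Rbfox2 as the only other protein-coding gene between them. Promoter windows of the members with signal, Apol7c and Apol9b, are printed beside those of their closest relatives, to show how alike the family's genes are upstream. Windows run from 250 bases before to 50 after the annotated start, 5′ to 3′ on the gene's strand, and come from RefSeq on GRCm38.p6. They are Apol7c at chr15:77533266-77533565 on the minus strand, Apol7e at chr15:77698639-77698938 on the plus strand, Apol7b at chr15:77447411-77447710 on the minus strand, Apol9b at chr15:77728822-77729121 on the plus strand and Apol9a at chr15:77411031-77411330 on the minus strand. Capitals mark matches to the core of the interferon-stimulated response element, searched as GAAANNGAAA on both strands, the sequence bound by interferon-activated transcription factors.
Apol7c: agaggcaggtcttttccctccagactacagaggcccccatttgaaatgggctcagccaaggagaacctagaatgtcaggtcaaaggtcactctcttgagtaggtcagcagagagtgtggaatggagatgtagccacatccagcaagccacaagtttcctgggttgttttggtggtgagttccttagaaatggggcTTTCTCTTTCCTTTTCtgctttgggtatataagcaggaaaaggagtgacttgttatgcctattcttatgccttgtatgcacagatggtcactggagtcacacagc
Apol7e: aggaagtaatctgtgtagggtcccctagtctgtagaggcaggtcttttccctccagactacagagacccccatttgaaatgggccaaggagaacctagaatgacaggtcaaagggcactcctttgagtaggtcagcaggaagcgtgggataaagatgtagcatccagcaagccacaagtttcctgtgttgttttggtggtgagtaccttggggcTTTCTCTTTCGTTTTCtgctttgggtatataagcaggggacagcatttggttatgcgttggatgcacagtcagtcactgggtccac
Apol7b: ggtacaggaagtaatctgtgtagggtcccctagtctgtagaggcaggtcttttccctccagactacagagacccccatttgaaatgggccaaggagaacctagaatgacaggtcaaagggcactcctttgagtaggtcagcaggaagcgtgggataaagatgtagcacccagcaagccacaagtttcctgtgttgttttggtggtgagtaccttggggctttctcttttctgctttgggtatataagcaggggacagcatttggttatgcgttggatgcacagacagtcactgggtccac
Apol9b: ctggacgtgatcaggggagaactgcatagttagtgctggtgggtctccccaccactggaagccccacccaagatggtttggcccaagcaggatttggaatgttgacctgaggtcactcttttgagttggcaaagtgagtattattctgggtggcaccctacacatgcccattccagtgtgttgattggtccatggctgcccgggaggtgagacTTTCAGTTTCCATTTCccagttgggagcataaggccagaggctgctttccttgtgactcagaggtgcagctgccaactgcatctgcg
Apol9a: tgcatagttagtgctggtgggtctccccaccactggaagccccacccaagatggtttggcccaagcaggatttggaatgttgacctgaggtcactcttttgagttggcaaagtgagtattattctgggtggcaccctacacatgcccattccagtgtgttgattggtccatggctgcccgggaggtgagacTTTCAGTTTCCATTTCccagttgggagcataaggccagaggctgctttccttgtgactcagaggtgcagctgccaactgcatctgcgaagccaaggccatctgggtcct
The Apol9a and Apol9b windows overlap over 278 bases once shifted, and all 278 were identical. Closest to Apol7c was Apol7e, with 244 identical bases over 297 aligned columns (82.2%), followed by Apol7b with 241 over 297 (81.1%). Apol7e and Apol7b shared 293 of 300 bases (97.7%), yet only Apol7e of these holds the interferon-element core.

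The interferon-element core was present in 8 of the 12 family genes with a promoter window, against 3.44% of 32851 windows of the same length over all genes. Family shares count genes, 2 of which have 2 windows, and the background counts windows. Near-copies count as separate genes, such as Apol9a and Apol9b or Apol11a and Apol11b (99.3% identical), so the 8 are not independent. Apol7c held 2 overlapping matches, at bases -55 to -46 and -49 to -40 counted from the start with no base 0. Apol9b also held 2 overlapping matches, at -37 to -28 and -31 to -22, and Apol9a the same pair of sequences. The other genes with a match were Apol7e, Apol10a, Apol10b, Apol11a and Apol11b, while Apol7a, Apol7b, Apol8 and the more distant Apold1 had none. The core of the hypoxia response element, searched as ACGTG on both strands, was found in Apol9b (bases -246 to -242) and Apold1, against 19.6% of all windows. A gamma-activated site core (TTCNNNGAA) was found in Apold1, Apol10a, Apol11a and Apol11b, against 8.30% of all windows, and the TATA box letters TATATAA in Apol7b, Apol7c and Apol7e, against 3.24%. These are matches of letters and say nothing of what binds there.

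**Figure D1:**
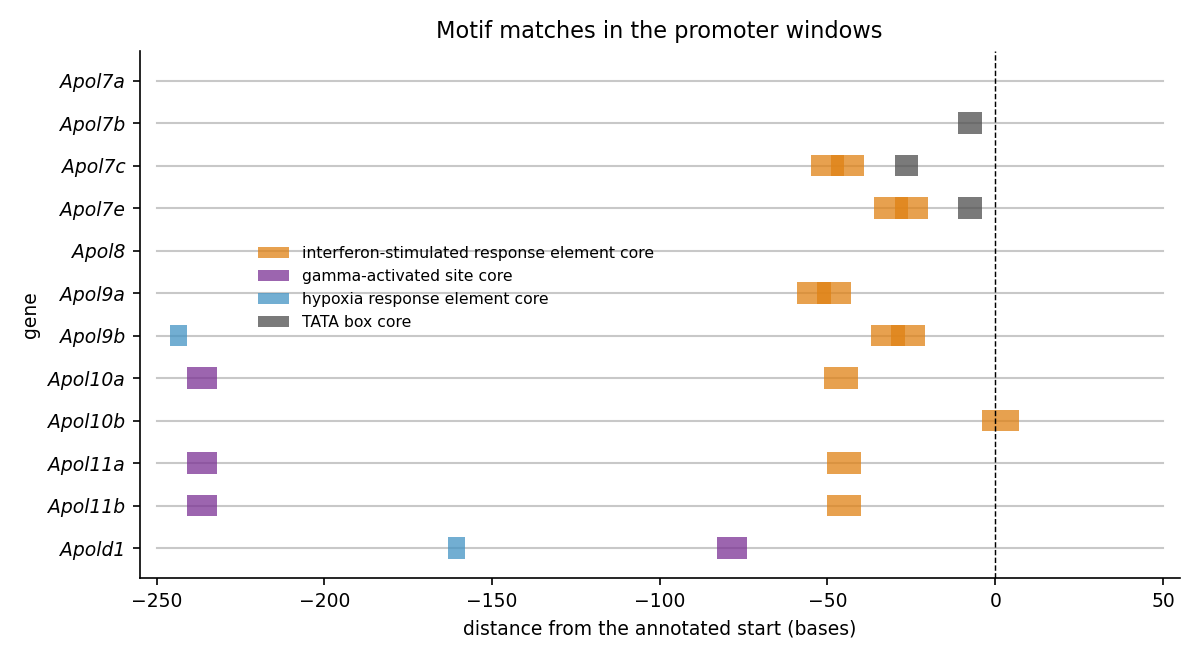
Positions of 4 motif cores in the promoter windows of 12 Apol family genes, as distance in bases from the annotated start (dashed line), with 1 row per gene and both strands searched. Interferon-element cores of Apol7c, Apol7e, Apol9a and Apol9b come as overlapping pairs, and Apol7a and Apol8 have no match.

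Values are intensities after RMA, a normalization that makes the distributions of the arrays alike, on a linear scale. The array medians were 3.90 to 4.09, and 9.09% to 9.59% of probe sets per array reached 64, which served as the floor for counting. Of the 22254 genes 2720 reached 64 on at least 1 array, and a gene could pass because it was high in 1 condition only. A call is a difference of at least 2-fold between 2 arrays, a log2 difference of 1. As a rough size of noise, the difference of differences, the hypoxia difference of stimulated cells less that of cells in media, had a robust SD of 0.45 across genes, which is 0.32 when scaled to 1 pair of arrays, and real responses are part of it. Of the 6 members with a row, Apol7c and Apol9b passed the floor, and Apol6, Apol7a, Apol8 and Apol10b did not. Both passed only in some conditions, Apol7c in normoxia and Apol9b with poly I:C, so they had to differ, and counts over them support nothing.

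**Figure D2:**
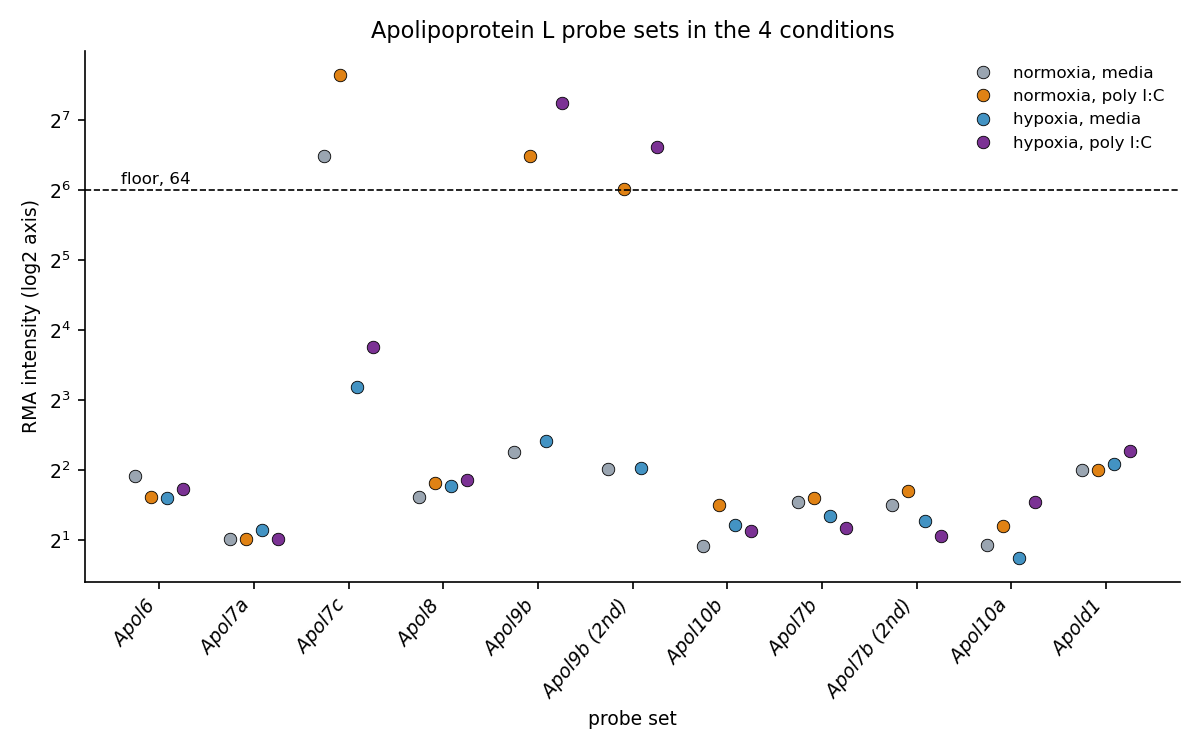
RMA intensity (log2 axis) of the 11 Apol family probe sets in the 4 conditions, 1 point per array, with the floor of 64 as a dashed line. Apol7c lies above the floor only in normoxia, both Apol9b probe sets only with poly I:C, and the other 8 probe sets stay between 1.68 and 4.84 in all conditions.

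Apol7c, the phagosome-rupturing member, was bright in normoxia and dim in hypoxia, with or without poly I:C. It read 90.2 in normoxia in media, 201 in normoxia with poly I:C, 9.16 in hypoxia in media and 13.5 in hypoxia with poly I:C. Both normoxic values lay above both hypoxic values. In hypoxia it was 9.85-fold lower in media (log2 difference -3.30) and 14.9-fold lower with poly I:C (-3.89). Among 2720 genes above the floor 2 were further below in media and none with poly I:C. It was 2.23-fold higher with poly I:C in normoxia (log2 1.16), and in hypoxia the difference was 0.56, short of 2-fold. The difference of differences was -0.59, against the robust SD of 0.45 over genes. Under both treatments together Apol7c was still 6.67-fold below the untreated normoxic array.

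Apol9b, the interferon-inducible member, was bright with poly I:C at both oxygen levels and dim without it. Its brighter probe set (10425049) read 4.79 in normoxia in media, 90.3 in normoxia with poly I:C, 5.35 in hypoxia in media and 152 in hypoxia with poly I:C. Both values in media were near the array medians and both values with poly I:C were above the floor. The log2 difference with poly I:C was 4.24 in normoxia (18.9-fold) and 4.83 in hypoxia (28.5-fold), ratios that rest on a dim denominator. The difference with hypoxia in media was 0.16, and with poly I:C the hypoxic array was 0.75 higher, also short of 2-fold. The difference of differences was 0.59, opposite in sign to that of Apol7c.

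A dimmer probe set (10430174) carries the same symbol and transcript accession in the deposited table. It read 4.05, 64.6, 4.07 and 98.7 in the same order of conditions. Its log2 differences with poly I:C were 3.99 in normoxia and 4.60 in hypoxia, so both probe sets gave the same direction. The table's cross-hybridisation flag was FALSE for all 11 Apol probe sets, and TRUE for 27 probe sets in all. Probe and transcript sequences were not used here, so whether these probes also bind Apol9a, or either probe set lies there, was not tested. "Apol9b" below stands for what these probe sets read. Binding of the Apol7c probes to relatives was not tested either. Both Apol7b probe sets read at most 3.26 on every array, and Apol7e, which is closer to Apol7c upstream, has no probe set named for it. Whether either Apol7b probe set reads Apol7e was not tested.

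The remaining members had no signal that stood clear of the bulk of probe sets. Apol6, whose human counterpart promotes cell death, read 3.77 in normoxia in media, 3.08 in normoxia with poly I:C, 3.04 in hypoxia in media and 3.32 in hypoxia with poly I:C. Apol8 read 3.08, 3.51, 3.41 and 3.64 in that order. Apol7a read 2.02 on 3 arrays and 2.22 in hypoxia in media. Apol10b read between 1.88 in normoxia in media and 2.84 in normoxia with poly I:C. The 4 genes together spanned 1.88 to 3.77, and the largest spread within a gene was 0.60 on the log2 scale, for Apol10b. Among other family genes, Apol7b, Apol10a and Apold1 read 1.68 to 4.84. No probe set was named for Apol7d, Apol7e, Apol10c-ps, Apol11a or Apol11b alone, so their intensities were not analysed. The size of noise given above comes from genes above the floor, so differences between conditions at these low intensities were not interpreted.

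Read against all genes, counts of members were as follows. With poly I:C in normoxia both members above the floor were higher, where 14.9% of the 2720 genes were. Apol9b was also higher with poly I:C in hypoxia, where 16.5% were. In hypoxia in media Apol7c was lower, where 6.76% were, and in hypoxia with poly I:C Apol7c was lower, where 3.68% were. No member was lower with poly I:C in normoxia or in hypoxia, where 7.21% and 9.60% of genes were, and none was higher in hypoxia in media or with poly I:C, where 5.37% and 4.01% were. Median log2 differences of the pair, 2.70 with poly I:C at both oxygen levels and -1.57 with hypoxia in both settings, average unlike genes, beside -0.10 to -0.03 for all genes.

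Low oxygen in the absence and presence of poly I:C was compared on separate pairs of arrays. Of the 2720 genes, 184 were at least 2-fold lower in hypoxia in media and 100 with poly I:C, and 37 were in both sets, which is 20.1% of the former and 37.0% of the latter. At 4-fold these numbers were 24, 5 and 1. That gene was Apol7c.

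**Figure D3:**
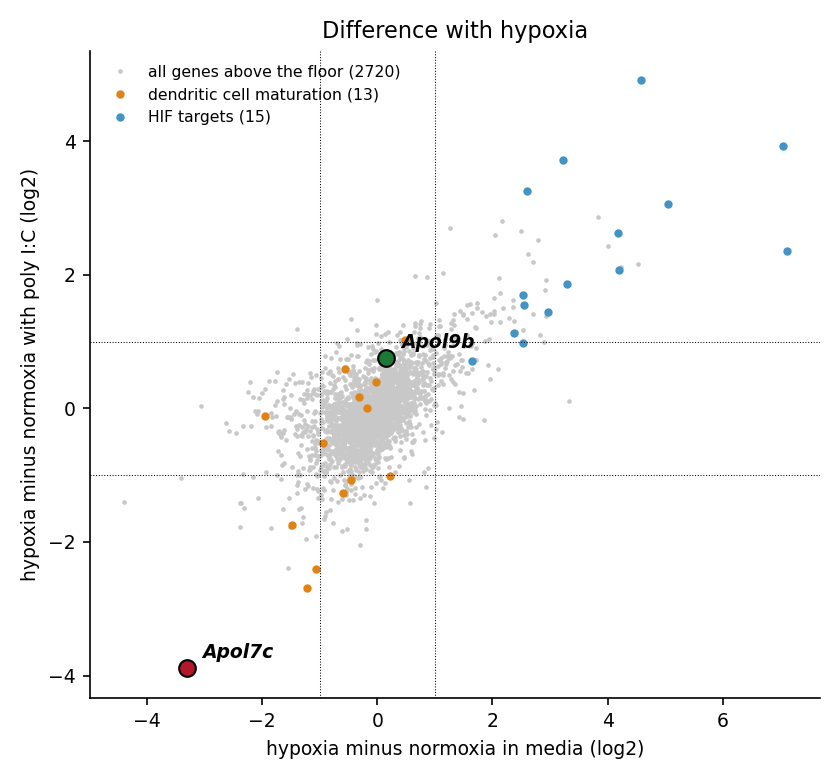
Log2 difference with hypoxia in media (horizontal) and with poly I:C (vertical) for 2720 genes above the floor, 1 point per gene, with dotted lines at 2-fold. Apol7c lies at -3.30 and -3.89, away from the other genes, and Apol9b at 0.16 and 0.75 lies within the main cloud.

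Genes whose profile over the 4 arrays came closest to each member were found by the Euclidean distance between log2 values centred on each gene's mean, over 2719 other genes. Apol7c had no close match. Its nearest gene was Fscn1 at a distance of 1.73, which encodes fascin, the actin-bundling protein of mature dendritic cells. Cacnb3, a calcium channel subunit gene (1.98), Clec5a, a myeloid lectin receptor gene (2.02), Edn1, the endothelin-1 gene (2.10), and Cmklr1, a chemerin receptor gene (2.15), followed, and no gene lay within 1. Fscn1 read 31.8, 122, 13.5 and 18.8, so its hypoxic values were also the lowest, and its difference with poly I:C in normoxia was larger, at 1.94. Cmklr1 read 90.0, 72.0, 25.1 and 20.8, which is low in hypoxia without being higher with poly I:C.

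Apol9b had many close matches, with 27 genes within a distance of 1. Nearest was Ptgs2, the inducible cyclooxygenase gene, at 0.18, with readings of 78.7 and 157 on the arrays with poly I:C. It was followed by H2-Q6, a class I histocompatibility gene (0.28), Isg15, the ubiquitin-like interferon-stimulated gene (0.31), BC023105 (0.43) and Gbp9, a guanylate-binding protein gene (0.48). These distances are over 4 values per gene and are descriptions only.

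**Figure D4:**
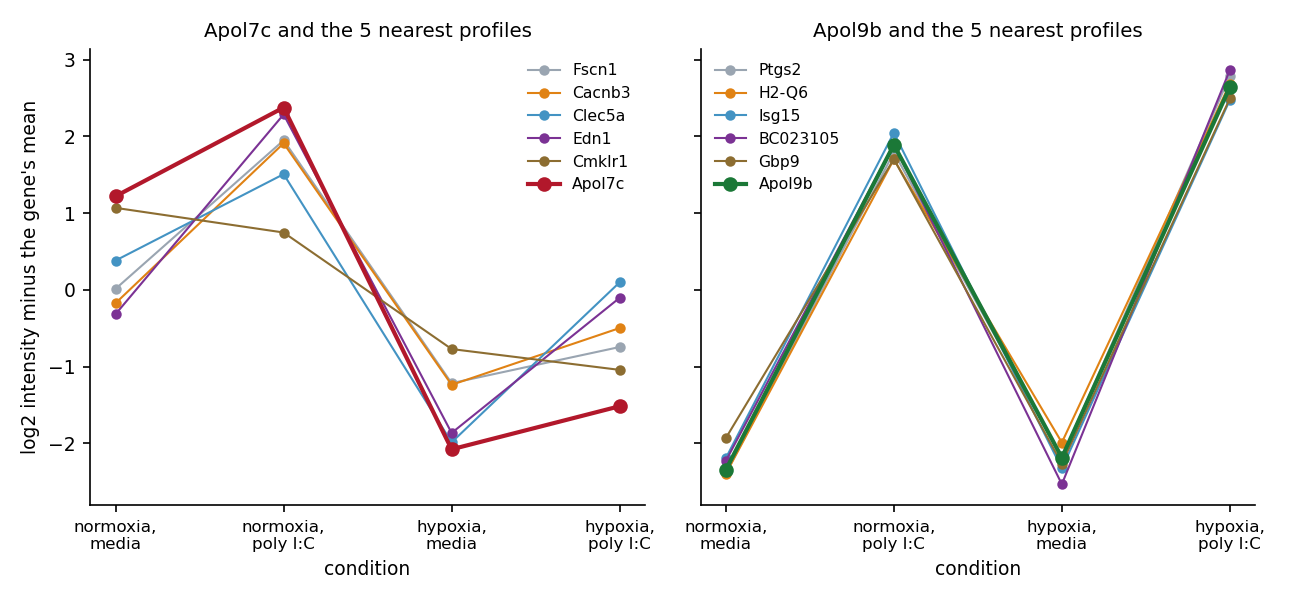
Log2 intensity of each gene minus its own mean (vertical) in the 4 conditions, for Apol7c with its 5 nearest genes (left) and Apol9b with its 5 nearest (right), lines joining the values of 1 gene. Lines around Apol9b lie almost on top of each other, with distances of 0.18 to 0.48, while those around Apol7c spread, with distances of 1.73 to 2.15.

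Against a list of 50 interferon-stimulated genes, all above the floor, the ratios of Apol9b lay in the upper part and those of Apol7c near the bottom. With poly I:C in normoxia 48 of the 50 were higher, none was lower and their median was 3.02 (all genes -0.03). Of the 50, 15 exceeded Apol9b and 48 exceeded Apol7c. In hypoxia 48 were again higher, where 16.5% of all genes were, with a median of 4.12 (all genes -0.06), and 16 exceeded Apol9b. That place of Apol9b rests on its dim values in media. With 16 added before log2 its differences were 2.35 in normoxia and 2.98 in hypoxia, next to list medians of 2.37 and 3.01, so it no longer lay above the middle of the list. In hypoxia in media 19 of the 50 were lower, none was higher and their median was -0.85 (all genes -0.10). Of all genes 6.76% were lower and 5.37% higher there. Apol9b at 0.16 was exceeded by 2 of the 50. Apol7c was further below than all 50 in that comparison, and in the one with poly I:C. In the latter none of the 50 reached 2-fold and the median was 0.10 (all genes -0.05). Of all genes 3.68% were lower and 4.01% higher in hypoxia with poly I:C. Rtp4, an interferon-induced receptor chaperone gene, was the listed gene furthest down in media, at -2.62.

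**Figure D5:**
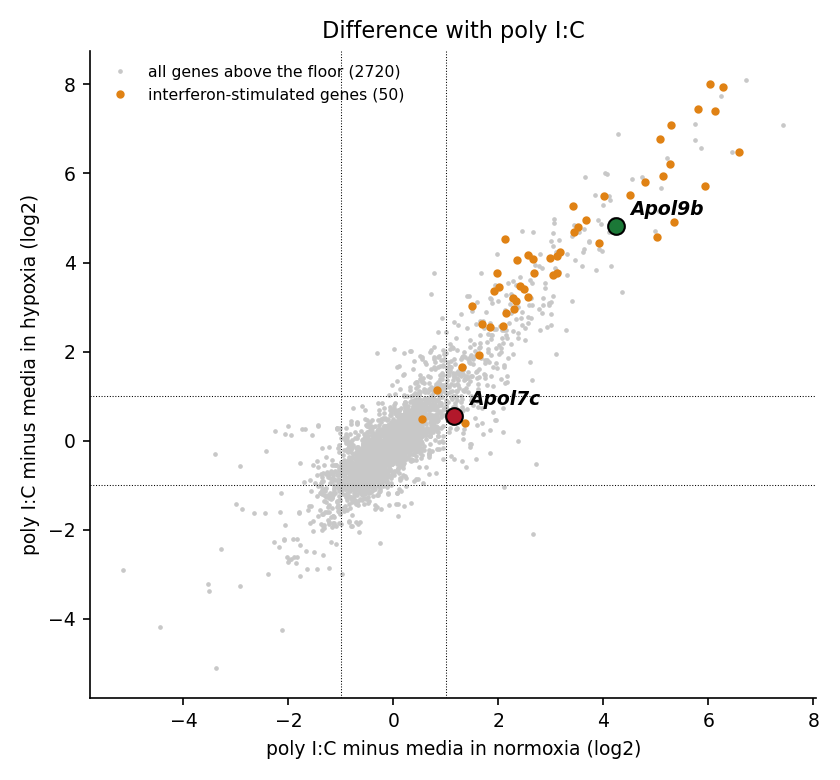
Log2 difference with poly I:C in normoxia (horizontal) and in hypoxia (vertical) for 2720 genes above the floor, 1 point per gene, with 50 interferon-stimulated genes in orange and dotted lines at 2-fold. Apol9b, at 4.24 and 4.83, lies among the interferon-stimulated genes and Apol7c, at 1.16 and 0.56, near their lower end.

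Genes of dendritic cell maturation were set beside Apol7c, with 13 of 28 above the floor. In hypoxia in media 4 of the 13 were lower and none was higher, with a median of -0.56, led by Marcksl1 (-1.95), Marcks (-1.48), Fscn1 (-1.23) and Cacnb3 (-1.06). In hypoxia with poly I:C 6 were lower and 1 was higher, with a median of -0.51, led by Fscn1 (-2.69), Cacnb3 (-2.41), Marcks (-1.75) and Ccr7 (-1.26), the receptor that guides dendritic cells to lymph nodes. Il15, a cytokine gene, was the higher one, at 1.02. Fscn1, Cacnb3 and Ly75 of this list passed the floor only on the normoxic array with poly I:C. Passing there favours being lower in hypoxia with poly I:C. Of all genes 6.76% were lower and 5.37% higher in hypoxia in media, with a median of -0.10. In hypoxia with poly I:C 3.68% of all genes were lower and 4.01% higher, with a median of -0.05. Members differed among themselves, and Cd86, a co-stimulatory ligand gene, was at -0.02 and 0.40. With poly I:C in normoxia 8 of the 13 were higher, as was Apol7c, and in hypoxia 7 were. Several of the 13, Fscn1 and Cacnb3 among them, passed the floor only with poly I:C, which favours being higher with it.

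The cross-presentation list, to which the known role of Apol7c belongs, was too short to set its hypoxia calls apart from the share over all genes. Of 14 genes above the floor, out of 18, 1 was lower in hypoxia in media, the peptide-trimming protease gene Erap1 (-1.49), where 6.76% of all genes were. None was lower in hypoxia with poly I:C, where 3.68% of all genes were. The list's medians were 0.00 and 0.27. Stimulated cells had 7 of the 14 higher in normoxia and 8 in hypoxia, led by the peptide transporter gene Tap1 (2.57 and 2.77). Among 11 genes above the floor for other pore-forming and cell death proteins, out of 16, none was lower in hypoxia in either setting. Beside shares over all genes of 6.76% and 3.68%, this list was also too short to set that apart. Vdac1 was the only gene of the 11 at least 2-fold higher in hypoxia, and was so in both settings, where 5.37% and 4.01% of all genes were. It read 83.1 and 277 in normoxia and hypoxia in media, and 69.5 and 197 with poly I:C. Mpeg1, which encodes perforin-2, a pore-former of phagocytes, read 1282, 1463, 1109 and 1617. Stimulation went with 5 of the 11 higher in normoxia and 7 in hypoxia, among them Mlkl, the effector gene of necroptosis (2.24 and 3.30), and the inflammatory caspase gene Casp4 (2.28 and 3.59).

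Genes listed as hypoxia-inducible factor targets were higher in hypoxia, where Apol7c was lower. Of 15 above the floor, out of 17, all 15 were higher in hypoxia in media (median 3.22) and 13 with poly I:C (median 2.08), led by Arg1, the arginase gene, at 7.11 in media and Selenbp1 at 4.91 with poly I:C. Several pass the floor only in hypoxia, which favours that direction. Of the apolipoproteins outside the Apol family, most of them carried on plasma lipoproteins, only Apoe passed the floor among 17 with a row. Apoe read 116, 106, 279.9 and 144, so it was highest in hypoxia in media, at a log2 difference of 1.27. The other 16 lay between 1.92 and 53.7.

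Genes next to the cluster were dim or differed less between conditions. Rbfox2, an RNA-binding protein gene between Apol6 and the rest, read 10.5, 11.2, 11.9 and 16.8. Of 3 protein-coding genes on either side, Myh9, a non-muscle myosin gene, and Txn2, a mitochondrial thioredoxin gene, passed the floor. Myh9 read 274, 175, 219.7 and 145, and Txn2 read 102, 84.5, 73.8 and 44.2, and neither reached 2-fold in any of the 4 comparisons. The other neighbours, Zfp647, 1110038F14Rik, Mb and Foxred2, and Rbfox2 stayed between 2.63 and 31.5.

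Cell identity was checked on marker lists, since in RNA of a whole culture fewer cells of a type and less RNA per cell cannot be told apart. Of 14 dendritic cell markers 5 passed the floor, Itgax, Cd74, H2-Ab1, H2-Aa and Irf8, and of 14 macrophage markers 12 passed. The summed dendritic cell markers were 3272 and 3110.4 in normoxia and 4114 and 4252 in hypoxia, in media and with poly I:C. Most of that sum is Cd74, H2-Ab1 and H2-Aa, genes of class II antigen presentation, and these 3 were higher in hypoxia in both settings. Itgax, the CD11c integrin gene, was lower in hypoxia in both settings, as Apol7c was, at 615 and 425 in media and 328 and 268 with poly I:C. Markers of conventional dendritic cells were dim, with Flt3 at 2.48 to 3.83, Zbtb46 at 4.97 to 6.21, Xcr1 at 2.77 to 3.54, Batf3 at 8.68 to 11.2 and Clec9a at 5.94 to 45.0. Irf8 read 43.5, 120.1, 63.4 and 57.4, which was highest where Apol7c was highest and lower in hypoxia with poly I:C, though not in media. Summed macrophage markers were 5742 to 6166, with Lyz2 the largest part, but the members differed. By sign alone, of the 12 above the floor 6 were lower in hypoxia in both settings (Adgre1, Fcgr1, Mertk, Mrc1, C1qa and C1qc) and 4 were higher in both. Some of these differences were slight, as for Fcgr1 with poly I:C (666 and 649.9) and C1qc in media (71.5 and 67.4). Only Mrc1, the mannose receptor gene, was at least 2-fold lower in both, at 131 and 50.1 in media and 11.5 and 4.81 with poly I:C. Adgre1, the F4/80 gene, read 174 and 90.9 in media and 96.8 and 50.5 with poly I:C. The part of Itgax, Irf8 and these macrophage genes in the result for Apol7c was not tested. Summed neutrophil markers, of which 1 of 11 passed the floor, were 502 and 623 in media and 147 and 132 with poly I:C, mostly from Mmp8. Erythroid markers summed to 42.5 and 49.1 in media and 181 and 87.7 with poly I:C, and endothelial markers to 42.0, 91.4, 81.2 and 129. In each list 1 gene was higher with poly I:C at both oxygen levels, as Apol9b was. Car2, the carbonic anhydrase gene of the erythroid list, read 34.4, 167, 37.7 and 76.8, and the other 3 erythroid genes read at most 8.89. Kdr, a vascular growth factor receptor gene, read 3.62, 64.1, 6.02 and 91.3, whereas Vwf, of the same list, was lower with poly I:C at both oxygen levels, and Pecam1 and Cdh5 read 2.73 to 4.38. Of the macrophage markers, Fcgr1 and Cd14 were at least 2-fold higher with poly I:C at both oxygen levels. Fcgr1 read 44.7, 666, 21.1 and 649.9, and Cd14 read 88.5, 188, 153 and 328. Mrc1 of that list was at least 2-fold lower with poly I:C at both. The part of Car2, Kdr, Fcgr1 and Cd14 in the result for Apol9b was not tested. Markers of T and NK cells, B cells, stroma, and mast cells and basophils read at most 8.63, and those of plasmacytoid cells at most 29.2 apart from the interferon-inducible Bst2.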

How the data were processed

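RNA of 4 dendritic cell cultures, 1 per condition, was hybridised to Mouse Gene ST 1.0 arrays, and samples were grouped by their condition label. The deposited intensity values were made by the authors with RMA, per the series' design text, and Affymetrix Expression Console, per the submitters' processing notes, with no version given there. The values are linear. The deposited series matrix held the same 28998 probe sets, and 0 values differed by more than rounding. The text table also has 4 columns of Z-scores and summary columns, which were not used.

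Probe sets were named by RefSeq accession (18757), symbol (2207), synonym (1750) or the file's symbol (2269), and 163 with several genes and 3852 with none were left out. The brightest probe set by mean over the arrays stood for a gene. Log2 differences were taken between arrays with Python 3.11.15 and pandas 2.3.3, and promoters were aligned with Biopython 1.88, with end gaps free. The 2-fold call was tested on simulated arrays with large added differences, so small differences were not covered. With 1 array per condition precision is set by the number of arrays, and there is no test, pairing or replicate check. Alternatives were cyclic loess (limma 3.58.1), centring on the median or on 7 reference genes, floors of 32 and 128 and none, averaging of probe sets, 16 added before log2, the series matrix, and thresholds of 1.5-fold and 3-fold. Members and gene lists were chosen with earlier results of these data known. Named genes were all members, the 5 nearest profiles of those above the floor, and up to 4 list genes of largest difference, and genes named beyond these were chosen after their values were seen.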

Additional observations from a re-analysis of the deposited data

Results flagged for a closer look

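Gbp9, named above for a profile like that of Apol9b, differed in opposite directions with hypoxia, -0.33 in media and 0.79 with poly I:C. Both exceed the 0.32 that stands in for noise, with 1 array per condition, and the difference between them was not tested. In media the difference barely exceeds it and rests on dim values, 8.67 in normoxia and 6.88 in hypoxia. Medians of the interferon-stimulated list had the same signs, -0.85 in media and 0.10 with poly I:C, so these signs are not particular to Gbp9.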

How the results depend on the processing

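No paired analysis was possible because each condition had 1 array. Under cyclic loess, centring and the other floors, Apol7c kept its direction, with log2 differences of -3.30 to -3.14 in hypoxia in media and -3.93 to -3.86 with poly I:C over the scalings. Apol9b lay at 4.17 to 4.49 with poly I:C in normoxia and 4.70 to 4.93 in hypoxia. Adding 16 before log2, which shrinks dim values by construction, gave -2.08 and -2.88 for Apol7c in hypoxia, and 2.35 and 2.98 for Apol9b with poly I:C. It moved the medians of the pair to 1.69 for poly I:C in normoxia, 1.60 for poly I:C in hypoxia, -1.02 in hypoxia in media and -1.11 in hypoxia with poly I:C. Without a floor 6 members entered, 4 of them near background, and the medians were 0.39, 0.11, 0.14 and 0.03 in that order, so both hypoxia medians changed sign. At 3-fold 1 member counted as different with poly I:C in normoxia, and at 1.5-fold 2 did in hypoxia with poly I:C.

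The balance of calls over all genes followed the scaling. Genes higher and lower with poly I:C in normoxia were 405 and 196 as deposited, 485 and 134 with cyclic loess and 546 and 98 with reference genes, and in that last setting the median over all genes shifted to 0.26 from -0.03. In the hypoxic pair they were 450 and 261, or 402 and 367 with median centring and 507 and 172 with cyclic loess or 474 and 214 with reference genes. In hypoxia in media they were 146 and 184, or 191 and 135 with reference genes. The maturation list's median in hypoxia with poly I:C moved from -0.51 to -0.99 with cyclic loess and -1.04 with reference genes. Intensities near the array medians limit what Apol6, Apol7a, Apol8 and Apol10b can show.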

Other observations

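Of the 405 genes at least 2-fold higher with poly I:C in normoxia, 76 were lower in hypoxia in media, 23 in hypoxia with poly I:C, and 13 in both, Apol7c among them. The other genes were Acsl1, Cacnb3, Calcrl, Ccnd1, Clec5a, Edn1, Fscn1, Gca, Ms4a6b, P2ry13, Rasgrp1 and Slamf8, chosen after their values were seen. All 3 comparisons that define this set share arrays, so membership is a description. Acsl1, which encodes a long-chain acyl-CoA synthetase, read 166 in normoxia in media, 601 in normoxia with poly I:C, 66.6 in hypoxia in media and 184 in hypoxia with poly I:C. Ms4a6b, a membrane protein gene, read 12.2, 384, 4.26 and 112 in the same order, and so kept a large difference with poly I:C in hypoxia (4.71) where that of Apol7c was 0.56.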
